A study of Mus musculus with 2 samples.

Results

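Genes of endosomal membrane traffic were followed in differentiating 3T3-L1 cells, a mouse preadipocyte line, after an siRNA against Phf21a. The genes were taken by symbol from the array's probe annotation and form 4 families: Rab, Arf with Arl, Vps and Snx. The symbol rule matched 137 genes with 303 probe sets of 1 gene, of 18193 genes and 45101 probe sets on the array. They divide into 59 Rab, 13 Arf and Arl, 35 Vps and 30 Snx genes. The Arl genes matched were Arl1, Arl2, Arl3, Arl11, Arl14, Arl15 and Arl16, so other Arl genes are not covered.

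Rab and Arf proteins are small GTPases that mark membranes. In the GTP-bound state each recruits effectors (coats, motors, tethers) to its own compartment, and exchange factors and GAPs switch it on and off. Vps proteins, named from yeast mutants of vacuolar protein sorting, are subunits of larger machines: retromer and retriever carry receptors from endosomes back to the surface or the Golgi, HOPS and CORVET tether endosomes and lysosomes, ESCRT sorts ubiquitinated receptors into multivesicular bodies, and GARP and EARP tether vesicles that return from endosomes. Sorting nexins (Snx) bind phosphoinositides through a PX domain, and those with a BAR domain bend the membrane into tubules. In fat cells this traffic is best known for holding the glucose transporter GLUT4 inside the cell and releasing it to the surface under insulin.

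The Phf21a siRNA group and the control siRNA group (siGL3) held 1 array each, which leaves the spread between cultures unmeasured and allowed no test. In both groups preadipocytes were transfected, given insulin, dexamethasone and 3-isobutyl-1-methylxanthine after 24 h, and harvested after another 24 h. The medium was DMEM (25 mM glucose, 10% FBS) throughout, and 1 ug of total RNA per array was labelled for a mouse Affymetrix array. Phf21a encodes BHC80, a subunit of the LSD1 and CoREST corepressor complex, and the comparison asks what its reduction does early in adipogenesis. The Phf21a signal itself was 306 with Phf21a siRNA and 768 with control siRNA, a log2 ratio of -1.33 ± 0.51. Of its 4 probe sets 3 reached the signal limit given below, with log2 ratios of -1.33, -1.35 and -0.73. The remaining probe set had 43.8 with Phf21a siRNA and 39.2 with control siRNA.

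Here and below the log2 ratio is Phf21a siRNA over control siRNA, and the value after ± is a local spread, the scatter of log2 ratios over 1000 genes of the closest signal. It includes any true change and is not the spread between cultures. A gene was kept when the mean log2 signal of its probe set reached the median of all signals (51.5), which left 10675 genes in all. Past 1.5-fold means a log2 ratio beyond 0.58 in either direction. Median signals were 49.8 with Phf21a siRNA and 53.2 with control siRNA, and the arrays had been scaled to the same trimmed mean of 500. Every "higher" and "lower" is relative to that scale: set to the poly-A spike controls the median of all genes moved by -0.73, and set to the hybridisation controls by -0.23.

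The labels call the cells differentiating adipocytes. All 9 preadipocyte and fibroblast markers on the array were kept, with a summed signal of 85028 with Phf21a siRNA and 91101 with control siRNA. That sum covers opposite differences, with 3 of the 9 markers above 0 and 6 below. Dlk1, which marks preadipocytes, had 5940 with Phf21a siRNA and 12290 with control siRNA (-1.05 ± 0.32, the log2 ratio and local spread defined above). Pdgfrb had 3743 with Phf21a siRNA and 2092 with control siRNA (0.84 ± 0.42), but its 2 kept probe sets ranged from 0.13 to 0.84. Of 6 early adipogenesis markers 5 were kept (Cebpa was not), with sums of 16593 with Phf21a siRNA and 14099 with control siRNA, and 0 of 5 mature adipocyte markers were kept. Fabp4 and Pparg, of the early list, were past 1.5-fold higher at 0.74 ± 0.36 and 0.67 ± 0.53. The rest of that list did not go with them. Cebpd (0.10), Cebpb (-0.0033) and Klf5 (-0.17) lay within their local spreads. Cebpa had signals of 12.0 with Phf21a siRNA and 45.0 with control siRNA. Of 7 leukocyte markers 3 were kept, summed over all 7 at 669 with Phf21a siRNA and 343 with control siRNA. All 3 kept ones were higher with Phf21a siRNA. Csf1r was at 1.18 ± 0.57, with 3 probe sets from 0.18 to 1.18, Cd68 at 0.89 ± 0.71 and Lyz2 at 0.42 ± 0.70. Ptprc, which defines leukocytes, was not kept, with signals of 0.486 with Phf21a siRNA and 3.07 with control siRNA. No endothelial marker of 4 was kept, and of 4 epithelial and 4 muscle markers only Epcam and Des were. The part of these markers in the results below was not tested, and in a bulk sample fewer cells of a type and less RNA per cell cannot be told apart.

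Of the 137 traffic genes 117 were kept. Among them 23 (19.7%) were at least 1.5-fold higher with Phf21a siRNA, against 14.1% of all kept genes. At least 1.5-fold lower were 7 members (5.98%), against 11.9% of all kept genes. Log2 ratios were above 0 in 75 members (64.1%), against 52.9% of all kept genes. The median log2 ratio was 0.20 over the members and 0.04 over all kept genes. At least 2-fold, 3 of the 117 members were higher (Rab27b, Snx8 and Rab43) and 3 were lower (Snx18, Rab39b and Rab40b). Both shares were below the 4.55% and 3.84% of all kept genes, so the larger share of higher members at 1.5-fold was not seen at 2-fold.

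The families differed in their medians. The 45 kept Rab genes had a median log2 ratio of 0.26, with 9 (20%) past 1.5-fold higher and 3 (6.67%) lower, against 14.1% and 11.9% of all kept genes. The 27 kept Snx genes had a median of 0.22, with 8 (29.6%) higher and 2 (7.41%) lower. The 34 kept Vps genes had a median of 0.06, close to that of all genes, with 6 (17.6%) higher and 1 (2.94%) lower. The 11 kept Arf and Arl genes had a median of 0.02, with 0 higher and 1 (9.09%) lower. The Rab median exceeded the Arf and Arl median by 0.24, the Vps median by 0.20 and the Snx median by 0.04. These differences were not tested, and within families the range was wide, from -1.35 to 1.51 in Snx. Counts past 1.5-fold in the smaller groups described next are read against the same 14.1% higher and 11.9% lower of all kept genes. Counts above 0 are read against the 52.9% of all kept genes that were above 0.

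**Figure D1:**
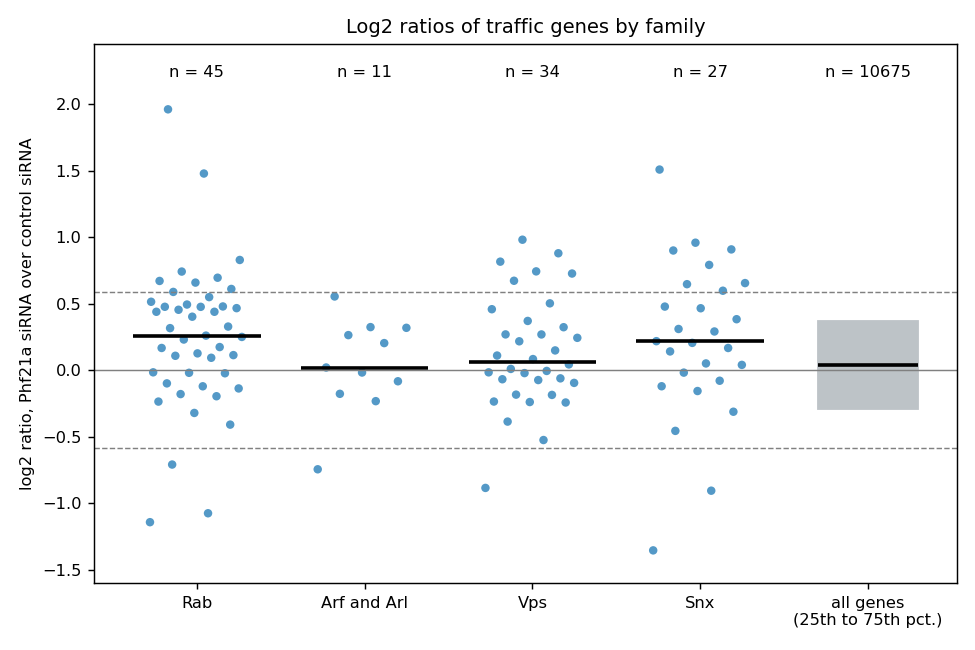
Log2 ratio (Phf21a siRNA over control siRNA, vertical axis) of every kept gene by family, 1 point per gene, with the family median as a black bar and dashed lines at 1.5-fold. The grey box spans the 25th to 75th percentile of all 10675 kept genes, whose median is 0.04. The Rab and Snx medians lie at 0.26 and 0.22, and the Arf and Arl genes hold no point above the upper dashed line.

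Bright genes gave the same order at the top. Of the members whose mean signal reached the 75th percentile of all signals (464), 31 Rab genes had a median of 0.33 and 20 Snx genes one of 0.30, followed by 23 Vps genes at 0.15 and 10 Arf and Arl genes at 0.11. The median of all 6692 bright genes was 0.04, with 11.4% at least 1.5-fold higher and 9.29% lower. Of the bright Snx genes 16 of 20 were above 0, against 54% of all bright genes.

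Other probe sets of the same gene were a check within the same RNA, though not a replicate. Of the 66 members with several kept probe sets 46 (69.7%) had all of them on the same side of 0, against 62.5% of all genes with several. Of the 23 members past 1.5-fold higher 12 had several kept probe sets, and of the 7 lower 5 did. Among these, all kept probe sets of Rab27b, Rab43, Snx16, Vps18, Rab21 and Snx30 were past 1.5-fold higher. All those of Snx18, Snx27 and Arl15 were past 1.5-fold lower. The check could not be made for Snx2, Snx8, Snx14, Snx15, Snx24, Snx33, Vps26a, Vps26c, Rab9, Rab29 and Rab42. Nor could it for the lower Rab33b and Rab40b. Rab30 and Vps13d were contradicted: a dimmer probe set of Rab30 had signals of 51.2 with Phf21a siRNA and 110.01 with control siRNA, and one of Vps13d had 44.8 with Phf21a siRNA and 83.3 with control siRNA. Rab30 and Vps13d are therefore counted among the higher genes on their brightest probe set only.

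**Figure D2:**
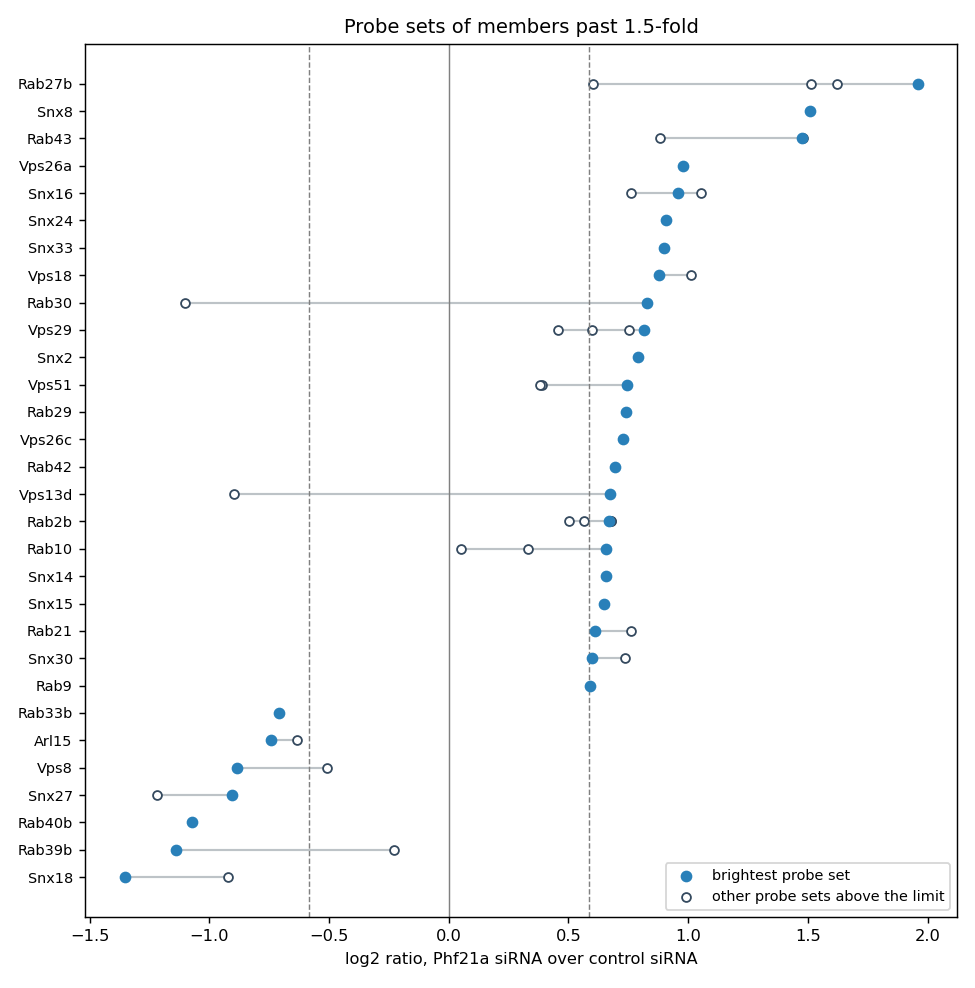
Log2 ratio (Phf21a siRNA over control siRNA) of each kept probe set of the 30 members past 1.5-fold, with the brightest probe set filled and the others open. Rab27b has 4 probe sets, all to the right of the dashed 1.5-fold line, while Rab30 and Vps13d each have an open point on the opposite side of 0.

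Retromer, with retriever, had all 6 of its kept genes above 0, against 52.9% of all kept genes, with a median log2 ratio of 0.59. Of these 6 genes 3 (50%) were past 1.5-fold higher, against 14.1% of all kept genes. Vps26a, the arrestin-like subunit of retromer, had a signal of 3841 with Phf21a siRNA and 1947 with control siRNA, a log2 ratio of 0.98 ± 0.43. Vps29, the scaffold that retromer and retriever share, had 12724 with Phf21a siRNA and 7228 with control siRNA (0.82 ± 0.31), and of the 1000 genes nearest in signal 1.4% had a higher ratio. Its other 3 kept probe sets were higher too, from 0.46 to 0.75. Vps35, the large solenoid that holds retromer together, had 13159 with Phf21a siRNA and 9576 with control siRNA (0.46 ± 0.29), and its other probe set gave 0.47 (4060 with Phf21a siRNA, 2938 with control siRNA). Both Vps35 probe sets thus stayed under 1.5-fold.

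The alternative subunit Vps26b stood at 1112 with Phf21a siRNA and 860.3 with control siRNA (0.37 ± 0.47), within its local spread, although its 3 probe sets were all higher (0.37 to 0.57). Of retriever, which recycles integrins, Vps26c had 4145 with Phf21a siRNA and 2505 with control siRNA (0.73 ± 0.40). Its partner Vps35l had 916 with Phf21a siRNA and 888 with control siRNA (0.04 ± 0.49), so the retriever subunits did not differ alike.

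The sorting nexins that work with retromer, the heterodimers of Snx1 or Snx2 with Snx5 or Snx6, were also all above 0. Their median was 0.29 over 4 genes, and 52.9% of all kept genes were above 0. Snx2 was past 1.5-fold, with 4939 in Phf21a siRNA cells and 2854 in control cells (0.79 ± 0.38). Its paralog Snx1 had 1655 with Phf21a siRNA and 1269 with control siRNA (0.38 ± 0.47), and Snx6 had 2632 with Phf21a siRNA and 2282 with control siRNA (0.21 ± 0.41) with 3 probe sets between 0.21 and 0.35. Snx5 had 9580 with Phf21a siRNA and 8684 with control siRNA (0.14 ± 0.31), but its other 4 probe sets lay below 0, down to -0.56. Snx3, which brings cargo such as Wntless to retromer without a BAR partner, had 8329 with Phf21a siRNA and 6717 with control siRNA (0.31 ± 0.33). Snx27, the PDZ-containing adaptor that hands surface proteins to retromer, went the other way, at 220.2 with Phf21a siRNA and 412 with control siRNA (-0.90 ± 0.57). A second Snx27 probe set had 128 with Phf21a siRNA and 298 with control siRNA.

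Promoter sequence was read for the members that have an entry in the RefSeq promoter table (build GRCm38.p6, 250 bases before each gene's start), which were 103 of the 137. The E-box CACGTG, read alike on both strands and bound by factors such as USF, MYC and the TFEB family, was searched because lysosomal genes often carry it. It was present in 14 of the 103 members (13.6%), against 10.1% of 8710 kept genes and 6.86% of 27025 genes with a window. The 103 members include genes that were not kept, such as Rab20 and Rab27a, both with CACGTG. Members and kept genes are therefore unlike sets for each motif. The longer form GTCACGTG, which contains CACGTG and was searched on both strands, was present in 7 members (6.80%), against 4.03% of those kept genes, and the cAMP response element TGACGTCA in 2 members (1.94%), against 3.10%. CACGTG was present in 3 of 16 members past 1.5-fold higher, in 1 of 6 past 1.5-fold lower and in 8 of 69 between, so it did not separate the directions in these windows. A match of letters is a description of the window and not a site of binding. The 6 windows below hold CACGTG, in capitals, and were chosen after the values were seen to set 3 higher genes beside 1 lower gene and 2 that differed little. Vps26a (chr10:62486806-62487055), Rab21 (chr10:115315592-115315841), Snx8 (chr5:140389309-140389558), Snx18 (chr13:113618565-113618814) and Vps33a (chr5:123573016-123573265) lie on the minus strand and Rab5a (chr17:53478984-53479233) on the plus strand, each printed 5′ to 3′ along the gene.
Vps26a: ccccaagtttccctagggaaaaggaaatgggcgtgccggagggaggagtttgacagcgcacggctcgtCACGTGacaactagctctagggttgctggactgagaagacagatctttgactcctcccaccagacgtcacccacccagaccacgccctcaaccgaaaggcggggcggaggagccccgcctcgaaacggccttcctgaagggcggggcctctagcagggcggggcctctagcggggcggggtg
Rab21: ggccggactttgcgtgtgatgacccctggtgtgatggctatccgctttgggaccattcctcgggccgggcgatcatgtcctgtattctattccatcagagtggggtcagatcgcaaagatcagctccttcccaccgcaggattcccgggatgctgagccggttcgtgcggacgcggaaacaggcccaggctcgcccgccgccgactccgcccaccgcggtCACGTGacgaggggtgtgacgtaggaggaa
Snx8: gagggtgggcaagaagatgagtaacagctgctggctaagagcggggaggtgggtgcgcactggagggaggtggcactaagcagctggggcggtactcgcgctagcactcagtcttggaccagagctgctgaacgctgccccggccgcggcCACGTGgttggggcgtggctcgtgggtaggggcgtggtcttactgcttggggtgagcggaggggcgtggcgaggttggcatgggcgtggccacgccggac
Snx18: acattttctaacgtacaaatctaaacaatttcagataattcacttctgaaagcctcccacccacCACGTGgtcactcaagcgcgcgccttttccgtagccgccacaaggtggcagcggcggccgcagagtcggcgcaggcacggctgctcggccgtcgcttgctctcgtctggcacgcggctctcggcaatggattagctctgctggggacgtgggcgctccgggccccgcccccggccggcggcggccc
Rab5a: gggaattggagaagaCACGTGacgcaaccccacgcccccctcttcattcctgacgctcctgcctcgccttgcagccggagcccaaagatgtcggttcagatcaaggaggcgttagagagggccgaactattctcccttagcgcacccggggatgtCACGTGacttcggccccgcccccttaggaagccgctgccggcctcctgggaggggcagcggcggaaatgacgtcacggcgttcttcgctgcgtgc
Vps33a: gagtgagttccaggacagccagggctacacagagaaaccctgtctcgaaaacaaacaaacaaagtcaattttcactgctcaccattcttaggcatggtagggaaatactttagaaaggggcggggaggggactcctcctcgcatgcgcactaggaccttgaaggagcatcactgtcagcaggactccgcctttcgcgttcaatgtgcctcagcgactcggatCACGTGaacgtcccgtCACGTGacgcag
The E-box began 182 bases before the start of Vps26a, 30 before Rab21, 100 before Snx8 and 186 before Snx18. Rab5a held 2, at 235 and 95 bases before its start, and Vps33a held 2, at 28 and 12 bases before. A second start of Vps26a in the table has a window of its own, not printed, with 2 further matches. The log2 ratios of these genes were 0.98 for Vps26a, 0.61 for Rab21, 1.51 for Snx8, -1.35 for Snx18, -0.18 for Rab5a and 0.11 for Vps33a.

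Of the 8 kept genes grouped under the HOPS and CORVET tethers 1 (12.5%) was past 1.5-fold higher and 1 (12.5%) lower. These shares were near the 14.1% and 11.9% of all kept genes. Vps18, a core subunit of both complexes, had 707 with Phf21a siRNA and 384 with control siRNA (0.88 ± 0.52), and its other probe set had 673 with Phf21a siRNA and 334 with control siRNA. Vps8, found in CORVET only, had 219.9 with Phf21a siRNA and 405 with control siRNA (-0.88 ± 0.57), and its other probe set had 236 with Phf21a siRNA and 336 with control siRNA. The log2 ratio of Vps18 exceeded that of Vps8 by 1.76. The remaining 6 genes lay between -0.18 and 0.22, each within its local spread. They were the core subunits Vps11 (0.22), Vps33a (0.11) and Vps16 (-0.0048), the HOPS subunits Vps39 (0.08) and Vps41 (-0.18), and Vps33b (-0.02). Vps33b, a relative of Vps33a, was counted in this group but is not a core subunit of either tether. Vps39 and Vps41 each had another probe set on the opposite side of 0 (-0.17 and 0.10).

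**Figure D3:**
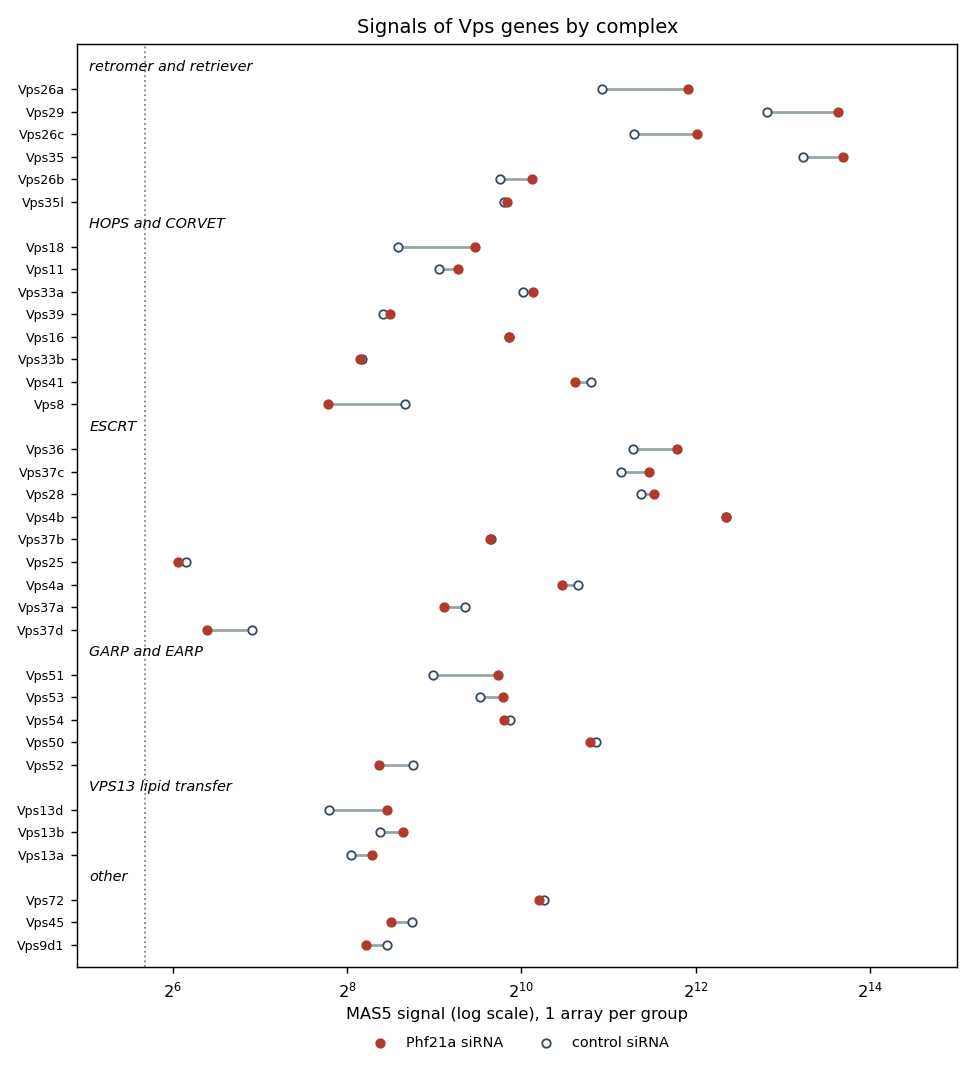
MAS5 signal (log axis) of each kept Vps gene on the Phf21a siRNA array (filled) and on the control siRNA array (open), ordered by complex and then by log2 ratio, with a dotted line at the limit of 51.5. In the retromer and retriever block all 6 filled points lie to the right of the open ones, with Vps35l nearly equal, and no ESCRT gene is past 1.5-fold on the probe set plotted.

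None of the 9 ESCRT genes with a Vps name was past 1.5-fold on its brightest probe set, and their median was -0.02. Vps36, of ESCRT-II, was highest at 3521 with Phf21a siRNA and 2485 with control siRNA (0.50 ± 0.41), though a dimmer probe set gave -0.08. Of ESCRT-I, Vps37c was at 0.32, Vps28 at 0.15, Vps37b at -0.02 and Vps37a at -0.23 on their brightest probe sets, and the dim Vps37d had 83.98 with Phf21a siRNA and 121 with control siRNA (-0.52 ± 0.70). The other probe sets of Vps37a disagreed, at 177 with Phf21a siRNA and 354 with control siRNA on one, lower by nearly 2-fold, and a log2 ratio of 0.22 on the other. Vps4a (-0.18) and Vps4b (0.01), the ATPases that take the ESCRT-III polymer apart, differed by less than their local spread. Vps25 was dim on its own probe set (66.7 with Phf21a siRNA, 71.2 with control siRNA). Probe sets shared with Ramp2, which were not used, had 1193 and 1780.1 with Phf21a siRNA, against 1185 and 1541 with control siRNA.

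Among the GARP and EARP tethers, Vps51, a subunit of both, was past 1.5-fold at 852 with Phf21a siRNA and 509 with control siRNA (0.74 ± 0.52). Its other 2 probe sets were higher by less (0.38 and 0.39). The shared subunits Vps53 (0.27) and Vps52 (-0.39), Vps54 of GARP (-0.07) and Vps50 of EARP (-0.07) lay within their local spreads. The VPS13 proteins, bridges that move lipid between membranes, were at 0.24 for Vps13a, 0.27 for Vps13b and 0.67 ± 0.57 for Vps13d (352 with Phf21a siRNA and 221 with control siRNA), the last with the contrary probe set given above. Of the 5 kept probe sets of Vps13a 3 were below 0, the lowest at -0.95 (49.96 with Phf21a siRNA, 96.3 with control siRNA). Outside these complexes, Vps45, the Sec1-type partner of syntaxin 16, was at -0.24 and Vps9d1 at -0.24. Vps72 shares the name but encodes a histone chaperone of chromatin remodelling complexes, and its signals were 1178 with Phf21a siRNA and 1229 with control siRNA.

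Sorting nexins held the largest differences outside the Rab family. Snx8, a BAR nexin of endosome-to-Golgi transport, had 1559 with Phf21a siRNA and 548 with control siRNA (1.51 ± 0.48), and 0.4% of the 1000 genes nearest in signal had a higher ratio. The BAR nexins with an SH3 domain, which act with dynamin and actin at the plasma membrane, parted widely. Snx33 had 585 with Phf21a siRNA and 313 with control siRNA (0.90 ± 0.53). Snx18 had 709 with Phf21a siRNA and 1811 with control siRNA (-1.35 ± 0.46), and its second probe set had 392 with Phf21a siRNA and 742 with control siRNA. Snx9 had 3439.7 with Phf21a siRNA and 3481 with control siRNA on its brightest probe set (-0.02 ± 0.39), but 1206 with Phf21a siRNA and 2511 with control siRNA on the other. The log2 ratio of Snx33 exceeded that of Snx18 by 2.25, the widest gap among the 18 pairs of related genes compared.

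Snx4, Snx7 and Snx30, which pair with each other in recycling and autophagy, were all above 0, at 0.22, 0.48 and 0.60. Of these Snx30 was past 1.5-fold, at 340.3 with Phf21a siRNA and 225 with control siRNA, and its second probe set had 236 with Phf21a siRNA and 142 with control siRNA. Of 10 nexins with neither a BAR nor a PXA or FERM domain, 3 (30%) were past 1.5-fold higher, against 14.1% of all kept genes. Snx16, an early endosome nexin linked to EGF receptor traffic, had 1314 with Phf21a siRNA and 677 with control siRNA (0.96 ± 0.48), and its 3 probe sets ranged from 0.76 to 1.05. Snx24 had 1839.9 with Phf21a siRNA and 981 with control siRNA (0.91 ± 0.46), and Snx15 had 1027 with Phf21a siRNA and 656 with control siRNA (0.65 ± 0.50). Snx12 was at 0.29 (0.75 on its other probe set), while Snx11 (0.17), Snx21 (-0.08), Snx29 (-0.16), Snx10 (-0.31) and the dim Snx22 (-0.45) lay within their local spreads.

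**Figure D4:**
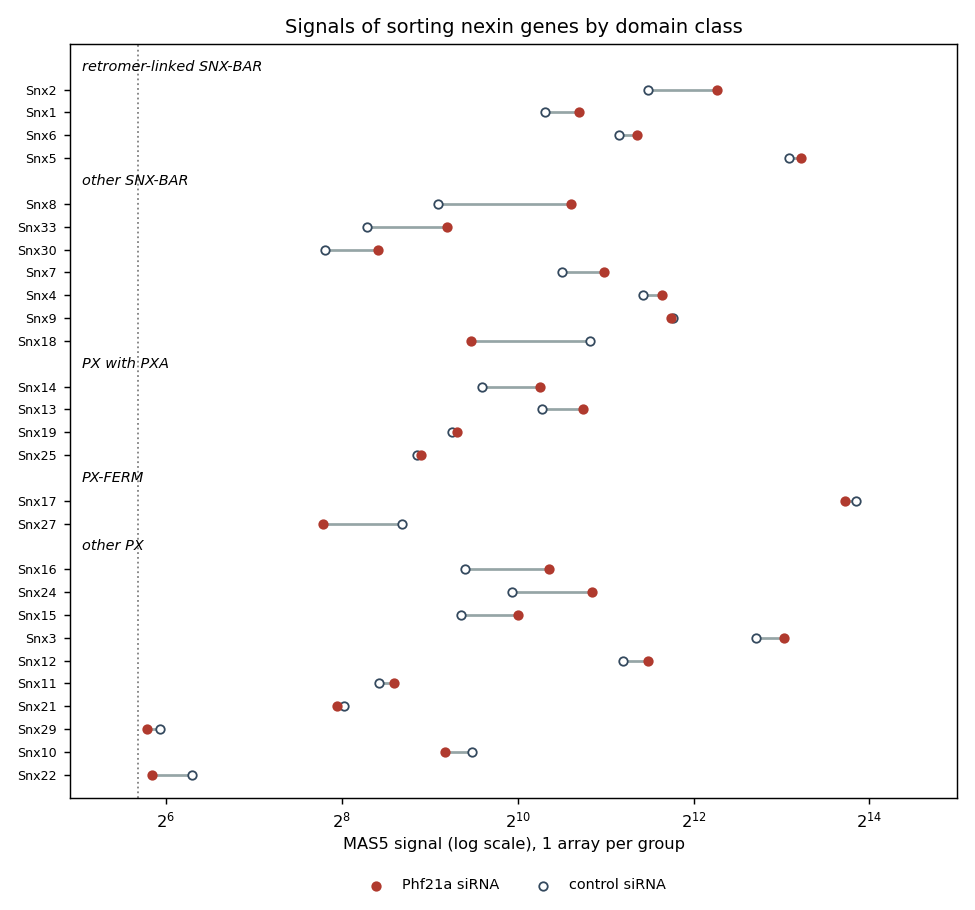
MAS5 signal (log axis) of each kept sorting nexin on the Phf21a siRNA array (filled) and on the control siRNA array (open), ordered by domain class, with a dotted line at the limit of 51.5. Snx8 and Snx18 show the longest lines, in opposite directions, and all 4 retromer-linked nexins have the filled point to the right.

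The PXA nexins, which sit in the endoplasmic reticulum membrane, were 4 of 4 above 0, against 52.9% of all kept genes. Snx14, whose loss causes ataxia in humans, had 1219 with Phf21a siRNA and 774 with control siRNA (0.65 ± 0.47). Snx13 had 1712 with Phf21a siRNA and 1239 with control siRNA (0.47 ± 0.47), and its other 2 probe sets gave 0.54 and 1.03. Snx19 and Snx25 were at 0.05 and 0.04, and a second Snx19 probe set was at -0.30. Besides Snx27, the kept PX-FERM nexin was Snx17, which brings receptors to retriever, at 13534 with Phf21a siRNA and 14705 with control siRNA (-0.12 ± 0.29).

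Among Rab genes of the early endosome 6 of 8 (75%) were above 0, against 52.9% of all kept genes. Of the 8 genes 1 (12.5%) was past 1.5-fold higher, near the 14.1% of all kept genes. Rab21, which travels with integrins, had 3216 with Phf21a siRNA and 2106 with control siRNA (0.61 ± 0.43), and its second probe set had 351 with Phf21a siRNA and 207 with control siRNA. The Rab5 isoforms, which drive fusion of early endosomes, did not differ alike. Rab5a had 4479.5 with Phf21a siRNA and 5069.7 with control siRNA (-0.18 ± 0.36), and each isoform lay within its local spread. Rab5b had 168 with Phf21a siRNA and 155 with control siRNA (0.11 ± 0.62). Rab5c had 509 with Phf21a siRNA and 375 with control siRNA (0.44 ± 0.54). Rab31 was at 0.40 ± 0.42 (2753 with Phf21a siRNA, 2083 with control siRNA), with a second probe set at 0.44, and Rab22a at 0.33 ± 0.47, with 3 dimmer probe sets below 0. Rab4a and Rab4b, of fast recycling, were at -0.02 and 0.11.

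Of the recycling endosome Rab genes 0 of 4 were past 1.5-fold. Rab11a, the marker of this compartment, had 4841 with Phf21a siRNA and 3472 with control siRNA (0.48 ± 0.37), but its other probe set had 920.3 with Phf21a siRNA and 1106 with control siRNA. Rab11b had 2788 with Phf21a siRNA and 3029.8 with control siRNA (-0.12 ± 0.41), and its other kept probe set had 178 with Phf21a siRNA and 159 with control siRNA (0.16). Both Rab11 genes thus had probe sets on either side of 0. Rab35 had 2084 with Phf21a siRNA and 2290.5 with control siRNA (-0.14 ± 0.44), and Rab15 was at -0.23 ± 0.61.

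The late endosome and lysosome Rab genes were 7 of 8 (87.5%) above 0 on their brightest probe sets, against 52.9% of all kept genes. Their median log2 ratio was 0.35. Of the 8 genes 2 (25%) were past 1.5-fold higher and 0 lower, against 14.1% and 11.9% of all kept genes. Rab7, which governs fusion with lysosomes and recruits retromer, had 9185 with Phf21a siRNA and 6429 with control siRNA (0.51 ± 0.33), and its second probe set had 5463 with Phf21a siRNA and 3726 with control siRNA. This exceeded the local spread but not 1.5-fold. Rab9, which returns mannose 6-phosphate receptors to the Golgi, had 4183 with Phf21a siRNA and 2782 with control siRNA (0.59 ± 0.39), just past 1.5-fold. Rab29, which recruits the kinase LRRK2 to stressed lysosomes, had 473 with Phf21a siRNA and 283 with control siRNA (0.74 ± 0.52). Rab32, of lysosome-related organelles, had 3013 with Phf21a siRNA and 2166 with control siRNA (0.48 ± 0.43). Rab36 (0.23), Rab24 (0.17) and Rab7b (0.13) were within their local spreads, and the other 2 kept probe sets of Rab36 were below 0 (-0.30 and -0.35). Rab34, which positions lysosomes, was below 0, at 3404 with Phf21a siRNA and 4516 with control siRNA (-0.41 ± 0.37) and a second probe set at -0.31.

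**Figure D5:**
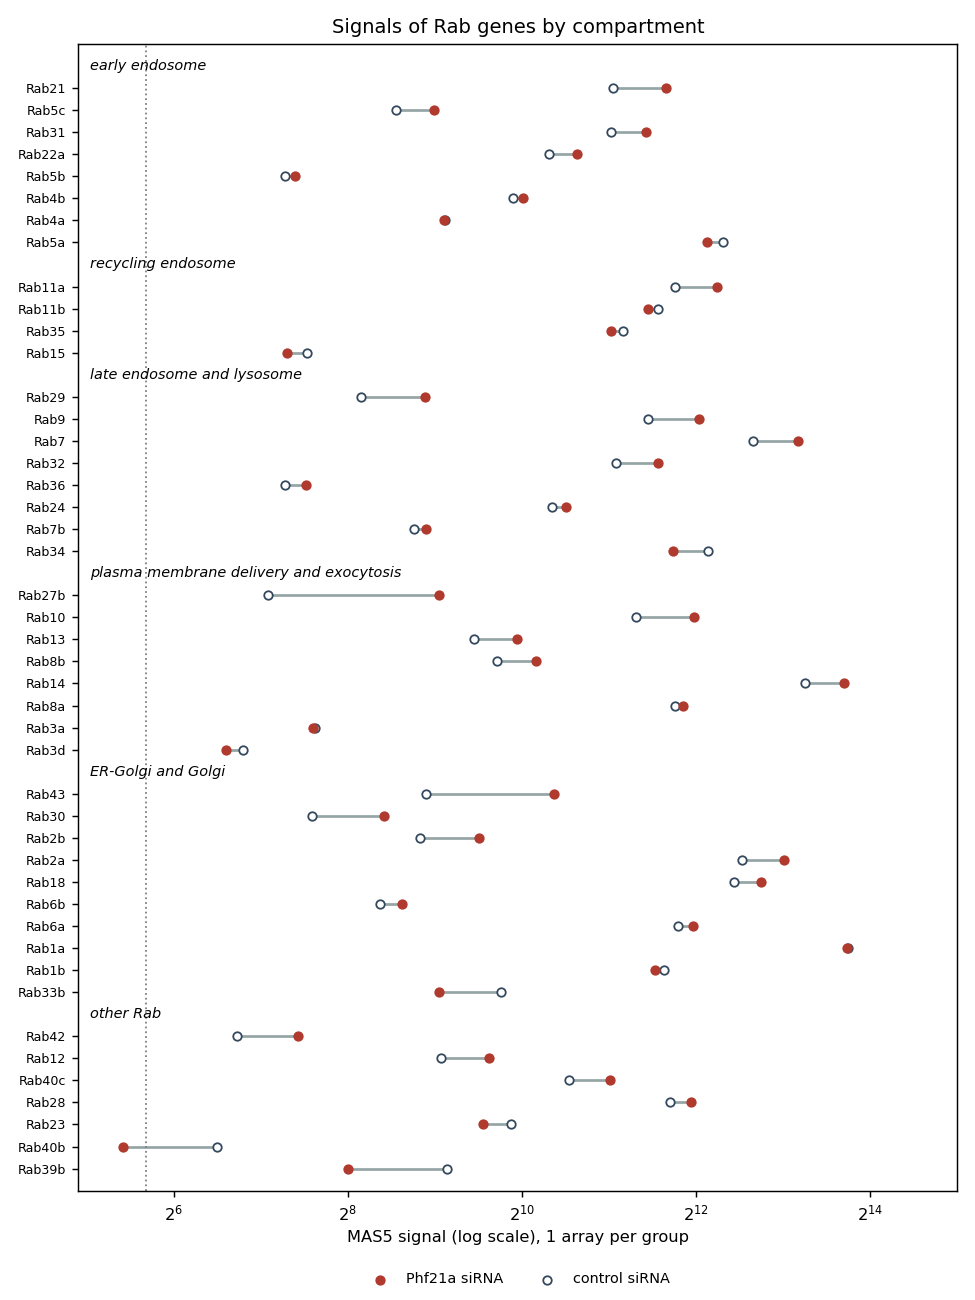
MAS5 signal (log axis) of each kept Rab gene on the Phf21a siRNA array (filled) and on the control siRNA array (open), ordered by compartment, with a dotted line at the limit of 51.5. Rab27b and Rab43 show the longest lines to the right, Rab39b and Rab40b the longest to the left, and Rab40b alone has a point below the limit.

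Rab genes of delivery to the plasma membrane held the highest ratio of the 117 kept members. Rab27b, known for docking secretory granules and multivesicular bodies at the surface, had 528 with Phf21a siRNA and 136 with control siRNA (1.96 ± 0.56). Its other 3 kept probe sets had 149, 98.2 and 139.7 with Phf21a siRNA, against 48.5, 34.4 and 92.0 with control siRNA, so 4 of 4 were past 1.5-fold. Rab27a, its close relative, was under the limit on all 4 of its probe sets. Rab10, the Rab that carries GLUT4 vesicles to the surface in adipocytes, had 4013 with Phf21a siRNA and 2542 with control siRNA (0.66 ± 0.40), while its other probe sets gave 0.33 and 0.05. Rab14, which acts on endosomal GLUT4, had 13247 with Phf21a siRNA and 9769 with control siRNA (0.44 ± 0.29), and 6 of its 7 probe sets were above 0. Rab13, linked to GLUT4 in muscle, had 985 with Phf21a siRNA and 699 with control siRNA (0.49 ± 0.50). Rab8b was at 0.45 (1.03 on another probe set) and Rab8a at 0.09 (-0.27 on another), and the exocytic Rab3a (-0.02) and Rab3d (-0.19) were within their local spreads.

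Of 10 Rab genes of the Golgi and the path from the endoplasmic reticulum, 3 (30%) were past 1.5-fold higher and 1 (10%) lower, against 14.1% and 11.9% of all kept genes. Rab43 had 1324 with Phf21a siRNA and 476 with control siRNA (1.48 ± 0.50), and its other 2 probe sets gave 1.48 and 0.88. Rab2b had 726 with Phf21a siRNA and 456 with control siRNA (0.67 ± 0.53), and its 5 probe sets ranged from 0.50 to 0.68. Rab30 had 343 with Phf21a siRNA and 193 with control siRNA (0.83 ± 0.57) and the contrary probe set described above. Rab33b, which binds the autophagy protein Atg16l1, had 529 with Phf21a siRNA and 864 with control siRNA (-0.71 ± 0.53) on its only kept probe set. Rab2a (0.48) and Rab18 (0.32) were above 0, and Rab18 is known from lipid droplets. The 6 kept probe sets of Rab2a ranged from -0.08 to 1.25. Rab1a, the GTPase of transport from the endoplasmic reticulum, had 13552 with Phf21a siRNA and 13731 with control siRNA (-0.02), but its other kept probe set was past 1.5-fold lower, with 1759 with Phf21a siRNA and 2705 with control siRNA (-0.62). Rab1b was at -0.10, Rab6a at 0.17 (-0.07 on another probe set) and Rab6b at 0.26, with 1 of its 4 probe sets past 1.5-fold lower (-0.75).

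The remaining Rab genes went both ways. Rab39b, a neuronal Rab whose loss causes intellectual disability in humans, had 256 with Phf21a siRNA and 564 with control siRNA (-1.14 ± 0.52), though a second probe set had 179 with Phf21a siRNA and 209 with control siRNA. Rab40b, a Rab with a SOCS box that binds ubiquitin ligases, had 42.9 with Phf21a siRNA and 90.2 with control siRNA (-1.07 ± 0.70), and its signal with Phf21a siRNA was under the limit, so the ratio is uncertain. Rab42 had 172 with Phf21a siRNA and 106 with control siRNA (0.70 ± 0.68). Rab12, which sends transferrin receptor to lysosomes, was at 0.55 ± 0.53 (786 with Phf21a siRNA, 537 with control siRNA), Rab40c at 0.47, Rab28 at 0.25, and Rab23, a negative regulator of hedgehog signalling, at -0.32, with 3 probe sets down to -0.59.

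The 11 kept Arf and Arl genes showed the smallest differences of the 4 families on their brightest probe sets. They were also the brightest family, with a median signal of 3577 against 990 for Rab, 854 for Vps and 971 for Snx genes. Their median local spread was the narrowest, 0.39 against 0.47 for Rab, 0.49 for Vps and 0.47 for Snx genes. No Arf or Arl gene was past 1.5-fold higher, and 1 of 11 was lower. Arl15, a locus tied to adiponectin levels in humans, had 269 with Phf21a siRNA and 449.8 with control siRNA (-0.74 ± 0.55), and its second probe set had 166 with Phf21a siRNA and 257 with control siRNA. Arf1, which recruits Golgi coats, had 17347 with Phf21a siRNA and 18365 with control siRNA (-0.08 ± 0.29). Arf4, which works beside Arf1 at the Golgi, had 9293 with Phf21a siRNA and 10911 with control siRNA (-0.23 ± 0.30), with 3 probe sets from -0.69 to -0.23. Arf5 had 2103 with Phf21a siRNA and 1432 with control siRNA (0.55 ± 0.46), so its log2 ratio exceeded that of Arf4 by 0.79. Arf6, the Arf of the plasma membrane and endosomal recycling, had 13296 with Phf21a siRNA and 11071 with control siRNA (0.26 ± 0.29), but 2 dimmer probe sets had 444 and 60.0 with Phf21a siRNA, against 1463 and 129 with control siRNA. Its direction therefore rested on which probe set was read.

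Arf3 had 3604 with Phf21a siRNA and 3551 with control siRNA (0.02 ± 0.39), with other probe sets down to -0.76, and Arf2 had 999.2 with Phf21a siRNA and 867 with control siRNA (0.20 ± 0.48), with 4 probe sets from 0.09 to 0.82. Of the Arl genes, Arl3, an Arf-like GTPase of cilia, was at -0.18, Arl1, which recruits golgins, at -0.02, Arl2, a tubulin folding factor, at 0.32 and Arl16 at 0.32. Each lay within its local spread.

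Related or partner genes that differed by more than 0.58 in log2 ratio were Snx33 and Snx18, Vps18 and Vps8, Snx9 and Snx18, Snx33 and Snx9, Arf5 and Arf4, Rab5c and Rab5a, Vps26a and Vps26b (0.61) and Rab11a and Rab11b (0.60), in each case with the gene of higher ratio first. The other 10 of the 18 pairs, among them Rab2b and Rab2a (0.19), Rab8b and Rab8a (0.36), Rab7 and Rab7b (0.39) and Snx2 and Snx1 (0.41), differed by less.

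The 20 members that were not kept were 14 Rab, 2 Arl, 1 Vps and 3 Snx genes, and for these the signals are given without a fold. Rab20, a hypoxia-responsive endosomal Rab, had 88.4 with Phf21a siRNA and 20.5 with control siRNA, and Snx32, the brain form of the retromer-linked nexins, had 81.8 with Phf21a siRNA and 29.5 with control siRNA. Rab19 had 3.70 with Phf21a siRNA and 48.4 with control siRNA. Both probe sets of Vps13c had higher signals with Phf21a siRNA (45.9 and 51.8) than with control siRNA (31.0 and 10.5). All other signals of these genes were at most 68.2, the control siRNA signal of a Rab38 probe set.

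Genes that act on these families were read from lists of pathway members. Of 31 kept genes that cycle Rab proteins on membranes or bind them, 11 (35.5%) were past 1.5-fold higher and 0 lower on their brightest probe sets. Of all kept genes 14.1% and 11.9% were, and the median log2 ratio of the 31 was 0.36. Rabif, among the 11, was at 0.68 but had another probe set past 1.5-fold lower (-0.71). The highest were Rin2, an exchange factor for Rab5, at 459.8 with Phf21a siRNA and 128 with control siRNA (1.85), and Rilpl1, a Rab effector of cilia and lysosomes, at 1088 with Phf21a siRNA and 486 with control siRNA (1.16), though 1 of its 4 probe sets was at -0.24. The lowest were Mon1b, part of the exchange factor for Rab7 (-0.57, with another probe set at 0.39), and Rbsn, an effector of Rab5 (-0.47). Of 26 kept Rab GAPs of the TBC family 7 (26.9%) were higher and 3 (11.5%) lower. Sgsm2 was highest at 2.31 (476 with Phf21a siRNA, 95.8 with control siRNA), and Tbc1d2, a GAP linked to Rab7, was at 1.80 (219.6 with Phf21a siRNA, 63.1 with control siRNA). Tbc1d4, known as AS160, the GAP that holds Rab10 inactive until insulin acts, had 174 with Phf21a siRNA and 441 with control siRNA (-1.34), and Tbc1d16 had 120.2 with Phf21a siRNA and 247 with control siRNA (-1.04).

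Of 28 kept exchange factors, GAPs and effectors of Arf proteins 1 (3.57%) was past 1.5-fold higher (Agap1, 0.61) and 3 (10.7%) lower, against 14.1% and 11.9% of all kept genes, the lowest being the Golgi exchange factor Arfgef1 (-0.92) and the adaptor Gga1 (-0.70), and the second highest was Arfgap3 (0.57). Of 23 kept ESCRT genes without a Vps name 6 (26.1%) were higher and 1 (4.35%) lower. Mvb12a of ESCRT-I stood at 1.01 (with another probe set at -0.03) and Chmp3 of ESCRT-III at 0.99 (0.09 on another). At the other end were Chmp7 at -0.61 and Mvb12b at -0.55 (0.01 on another). The higher genes Ubap1 (0.71) and Stam (0.69) also had a probe set near 0, at 0.14 and -0.04. Chmp1a (0.74) and Chmp2a (0.61) had 1 kept probe set each. Of the WASH complex, which builds actin on retromer tubules, and its partner Capzb, 2 of 6 kept genes (33.3%) were higher and 0 lower, namely Washc2, the subunit that binds Vps35, at 7413 with Phf21a siRNA and 4062 with control siRNA (0.87), and Washc1 (0.62). Washc5 and Washc4 were at -0.26 and -0.23, and another probe set of Washc4 was at 0.22.

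Of 27 kept genes of clathrin and its adaptors 4 (14.8%) were past 1.5-fold higher and 3 (11.1%) lower, near the 14.1% and 11.9% of all kept genes. The light chain Cltb was at 0.81 on its brightest probe set but at -0.62 on its other one, and Ap1g2 was at 0.75. Ap3m1 of the AP-3 adaptor was at -1.91 (391 with Phf21a siRNA and 1466 with control siRNA) and Ap1s3 at -1.04. Ap1s3 had 47.6 with Phf21a siRNA, under the limit, and 98.0 with control siRNA, so its ratio is uncertain. Of 19 kept SNARE genes and their partners 4 (21.1%) were higher, led by Stx4a, the surface syntaxin that receives GLUT4 vesicles (0.90), and Vti1b (0.81), and 1 (5.26%) was lower, Stx16 (-0.62), followed by Snap23 at -0.57. Of 17 kept phosphoinositide enzymes and their partners 4 (23.5%) were higher and 0 lower, although their median was -0.03, with Mtmr3 at 0.71, Vac14 at 0.63, Mtm1 at -0.54 (0.07 on another probe set) and Pi4k2a at -0.54. Of 24 kept subunits of the exocyst, COG and TRAPP tethers 2 (8.33%) were higher (Exoc1, 0.71, and Trappc5, 0.64) and 1 (4.17%) lower (Exoc5, -0.93), and Cog1 was at -0.31. A second Trappc5 probe set was at -0.06, and the 5 of Cog1 ranged from -2.21 to 0.04. Of 9 kept receptors and transporters carried by this traffic 0 were past 1.5-fold, from Igf2r at 0.47 and Egfr at 0.10 to M6pr at -0.41 and Sort1, the sortilin of GLUT4 vesicles, at -0.57. Slc2a4, which encodes GLUT4 itself, was not kept, at 8.99 with Phf21a siRNA and 70.8 with control siRNA.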

How the data were processed

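Per the submitters' processing notes the authors made the deposited signal intensity values with MAS5, on a linear scale. No version of it is given in the sources used here, and detection calls were not used. Groups came from the sample descriptions. GEO's annotation of the array names 1 gene for 34945 of 45101 probe sets, and all 137 members matched RefSeq by Entrez number. Signals were raised to the 25th percentile (12.9) before log2. A probe set was kept where its mean log2 signal reached the median, because a limit on the higher signal favours genes that differ. Each gene was read from its brightest kept probe set, one ending in _x_at only where no other was kept. The local spread takes the 84th minus the 16th percentile of log2 ratios and divides it by 2. With 1 array per group no p-value was computed, and counts are set against the shares over all kept genes. The number of arrays limits the precision. The members, gene lists, role groups and the rule for named genes were chosen with earlier results of these data known. That rule takes Phf21a, members past 2-fold, the 4 highest, 4 lowest and 4 brightest genes of each family, all kept genes of the endosomal, Arf, retromer, HOPS, ESCRT, GARP and retromer-linked nexin groups, and the 2 highest and 2 lowest of each other list. Further members are named for completeness, and Slc2a4, Washc1, Snx9 and the related pairs after their values were seen. The counting was tested on simulated data. Other scalings, filters, floors, probe set summaries and a 2-fold limit were tried. Scripts ran in Python 3.11.15 (pandas 2.3.3, numpy 2.4.6), with statsmodels 0.14.6 for loess and matplotlib 3.10.9 for figures.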

Additional observations from a re-analysis of the deposited data

How the results depend on the processing

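No paired analysis was possible because each group has 1 array. The number of arrays and the scatter of dim probe sets limit all values. Scaled to the poly-A controls, past 1.5-fold higher and lower were 2 and 17 Rab, 1 and 10 Snx, 0 and 20 Vps genes, and 6 Arf and Arl genes were lower, while 1.76% and 59.3% of all genes were higher and lower. There the log2 ratios turned negative for Rab10 (-0.0776), Rab21 (-0.13), Rab9 (-0.15), Vps13d (-0.0638) and Vps26c (-0.00953). Scaled to the hybridisation controls, 3 Rab, 4 Snx and 3 Vps genes were higher and 3 Vps genes lower. Of all genes 7.75% were higher and 21.2% lower there. Scaled to the median, 1 Arf or Arl gene was higher, against 18.3% of all genes. Scaling to controls multiplies 1 array by a constant, so all genes shift together. The median of the members minus that of all genes was therefore bound to change little. It was 0.17 under the poly-A and 0.17 under the hybridisation scaling. It cannot tell which scaling is right, and the cause of these counts was not tested. With the filter at the 75th percentile 5 Rab genes were higher, and 1 Rab, 1 Snx, 0 Vps and 0 Arf and Arl genes lower. With no filter 6 Rab and 2 Arf and Arl genes were lower. At 2-fold, 2 Rab, 1 Snx and 0 Vps genes were higher, and 1 Snx, 0 Vps and 0 Arf and Arl genes lower. With the mean over probe sets the median minus that of all genes was 0.11 for Rab and -0.18 for Arf and Arl genes, 2 Arf and Arl genes were lower, and Rab30 (-0.14) and Vps13d (-0.11) turned negative. Without suffixed probe sets Rab30 was at -1.10, 6 Rab genes were lower, 3 Vps genes higher and the Arf and Arl median difference was 0.16. The cause of these probe set differences was not tested. With a limit on the higher signal 26 of 121 members were higher and 8 lower. The other 121 alternative values for the families moved little.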
